A study of Arabidopsis thaliana with 8 samples.

Results

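The minor antenna of photosystem II and the antenna of photosystem I were followed here through 10 genes, chosen by their identifiers out of the 27416 genes in the count table. The minor photosystem II antenna was represented by 5 genes, LHCB4.1 (AT5G01530), LHCB4.2 (AT3G08940) and LHCB4.3 (AT2G40100) for CP29, LHCB5 (AT4G10340) for CP26 and LHCB6 (AT1G15820) for CP24. The photosystem I antenna was represented by another 5, LHCA1 (AT3G54890), LHCA2 (AT3G61470), LHCA3 (AT1G61520), LHCA4 (AT3G47470) and LHCA5 (AT1G45474). Values were counts of ribosome footprints, the mRNA pieces that a translating ribosome shields from nuclease, on the coding sequence of each gene. They came from root and shoot of 4-day-old Arabidopsis thaliana seedlings of the Col ecotype, grown in liquid medium with sucrose and collected at 3 h of light. The study varied the polysome extraction buffer, and each root or shoot sample was prepared once in each of 4 buffers, for 8 libraries in all. Detergents, DTT, cycloheximide and DNase I were common to all buffers. The KCl and MgCl2 concentrations were 50 and 25 mM in buffer A, 40 and 20 mM in buffers B and D, and 30 and 15 mM in buffer C. Tris-HCl was 200 mM except in buffer D, where it was 100 mM. With a single library per tissue and buffer, the 4 buffers stand as repeats of a tissue. Whether different plants or cultures were used for them is not stated, so the p-values reflect the spread between these libraries, which may be technical.

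Light-harvesting proteins hold chlorophylls and carotenoids in the thylakoid membrane and pass excitation energy to the reaction centres. In photosystem II the minor proteins CP29, CP26 and CP24 are monomers that sit between the core and the major trimers, and CP29 and CP24 together help to dock a trimer. In photosystem I the LHCA proteins form a belt of dimers on one side of the core, LHCA1 with LHCA4 and LHCA2 with LHCA3, while LHCA5 is a scarce member that takes part in joining photosystem I to the chloroplast NDH complex. All are encoded in the nucleus, translated in the cytosol and imported into plastids, and leaves are their main site of synthesis.

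Totals on coding sequences were 1120218 to 3410266 counts in root and 3746348 to 4501213 in shoot. The tissue labels were set beside marker genes that do not serve photosynthesis. These markers were chosen with earlier results of these data known, so they are no independent check of the labels. All 10 root markers were higher in root and all 9 shoot markers were lower in root. Summed over the list, shoot markers reached 2817 to 3130 CPM in shoot and 28.0 to 69.2 CPM in root, where 6 of the 9 had counts and the leaf polarity genes AFO, YAB2 and YAB3 had 0. AFO, YAB2 and YAB3 entered the test through their shoot counts alone and could hardly be called higher in root. Root markers summed to 2191 to 2855 CPM in root and 79.3 to 198.6 CPM in shoot. CPM are counts scaled to a common library size with a TMM factor. They hold no correction for coding length. Levels were therefore compared between tissues and buffers for 1 gene at a time, and the genes were not ranked against each other.

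Root libraries held few footprints of any of the 10 antenna genes, and the 9 genes with root counts stood at 0.793 to 1.72% of their shoot level. For each of the 10, every root library lay below every shoot library, against 25.3% of the 15664 genes tested. The test called all 10 lower in root (edgeR quasi-likelihood test, Benjamini-Hochberg adjusted p under 0.05), where 22.6% of all genes were called in that direction, and 0 of the 10 higher, where 17.8% of all genes were. Of the 10, LHCB4.3 and LHCA5 passed the filter on low counts only through shoot. Their direction was thus nearly fixed beforehand, and they add little to these counts. The median log2 fold change of the 10, root minus shoot, was -6.69, beside -0.12 over all genes tested. Together they held 1.81 ± 0.0945% of a shoot library (SD, n = 4) and 0.0280 ± 0.00285% of a root library. The summed level of the 10 in root was 1.1% of that in shoot, and the summed shoot markers stood at 1.58% of their shoot level in the same libraries. A single marker, KCS10, had a mean of 19.4 of the 46.1 CPM of the markers in root. In shoot it had 707.7 of 2926 CPM, so the marker value depends on that gene. Whether shoot material in the root libraries had a part in these levels was not tested. In whole organs, fewer cells that make a protein and fewer footprints per cell cannot be told apart, nor can mRNA level and translation in footprint counts alone.

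**Figure D1:**
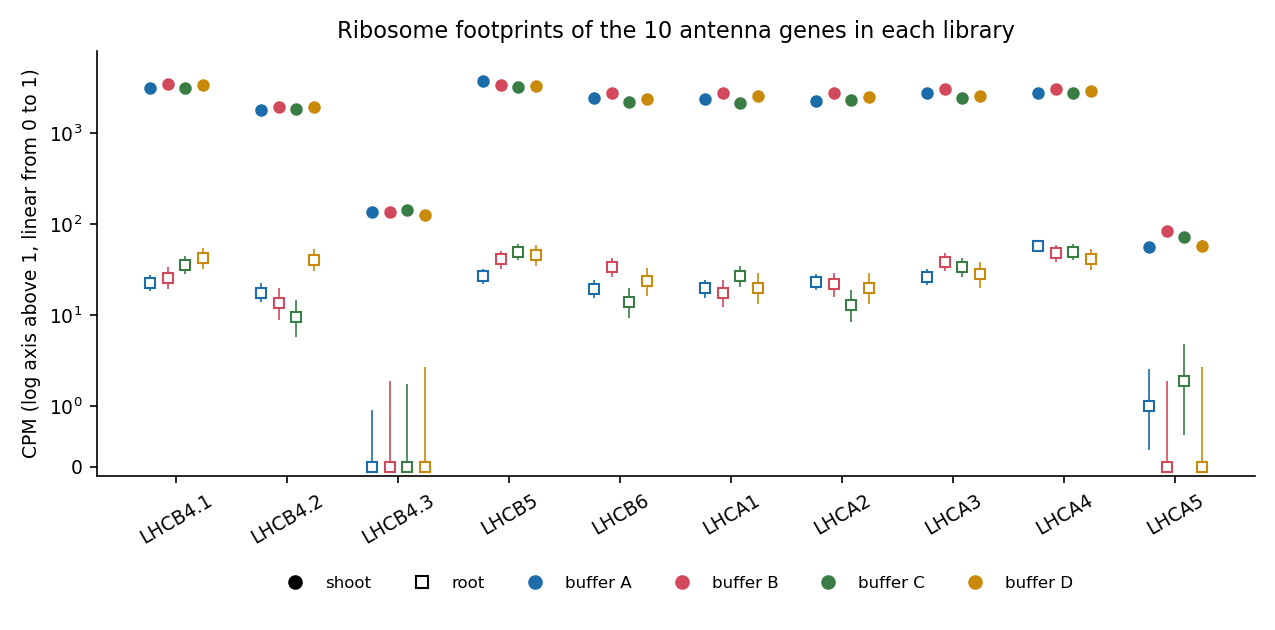
Level of each gene in each library in CPM, on an axis that is logarithmic above 1 and linear from 0 to 1. Filled circles are shoot and open squares root libraries, coloured by buffer, and bars are exact Poisson 95% intervals of the counts. Every root point lies below every shoot point of the same gene, and LHCB4.3 has no counts in root.

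CP29, the inner minor antenna protein between core and trimers, had footprints on all 3 of its genes in shoot, while in root LHCB4.3 had none. LHCB4.1 had 3098, 3474, 3097 and 3394 CPM in the shoot libraries A, B, C and D. In root the same gene had 22.7, 25.9, 35.8 and 42.7 CPM in that order, from 50 to 90 counts a library. The shoot values lay within 1.12-fold of each other, the root values within 1.88-fold, and the 2 groups were far apart. Its log2 fold change, root minus shoot, was -6.73 ± 0.16 SE (edgeR adjusted p = 4.40e-10).

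LHCB4.2, which encodes a second full-length CP29, had 1768, 1932, 1824 and 1931 CPM in shoot A to D. Its root values were 17.7, 13.4, 9.54 and 40.5 CPM. Root D stood above the other 3 root libraries, with a counting interval of 30.5 to 52.7 CPM that did not meet theirs, which ended at 22.3, 19.7 and 14.7 CPM. Root D also had the highest summed shoot markers, at 69.2 CPM, and the fewest counts in all, and whether either bears on this value was not tested. The log2 fold change was -6.66 ± 0.27, and -7.06 without root D. No source used here says how reads that align more than once were treated, so those shared by LHCB4.1 and LHCB4.2 may have been counted at either gene.

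LHCB4.3, also called LHCB8, encodes a CP29 form that lacks part of the C-terminal region. It had 136, 137, 145 and 124 CPM in shoot, from 392 to 512 counts a library. No footprint was counted in any root library. Set against 3 counts over the 4 root libraries, or 0.321 CPM, the shoot level was at least 422-fold higher (adjusted p = 1.27e-06 in the edgeR test). A root level at 0.793% of shoot, the lowest among the other 9 genes, would lie above that floor for LHCB4.3.

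CP26 and CP24, the other minor antenna proteins, were lower in root by similar amounts. LHCB5, the gene of CP26, had 3714, 3385, 3181 and 3301 CPM in shoot A to D. In root it had 26.8, 40.9, 49.6 and 45.6 CPM, so that buffer A gave the highest shoot value and the lowest root value. The log2 fold change of LHCB5 was -6.43 ± 0.18 (edgeR adjusted p = 1.48e-09). LHCB6, the gene of CP24, ranged from 2167 CPM in shoot C to 2724 CPM in shoot B, with 2446 in A and 2357 in D. Its root values were 19.5, 33.6, 13.8 and 23.6 CPM, again with C lowest and B highest, and the log2 fold change was -6.79 ± 0.16. Among the 5 genes of the minor antenna, the summed root level ran from 86.7 CPM in A to 152 CPM in D, against 10410 to 11650 CPM in shoot.

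In the photosystem I antenna, LHCA1, partner of LHCA4 in a dimer, had 2374, 2747, 2144 and 2559 CPM in shoot A to D. Root values of LHCA1 were 19.7, 17.6, 26.7 and 19.9 CPM. Shoot C was thus the lowest of the shoot libraries and root C the highest of the root libraries, and the log2 fold change was -6.86 ± 0.16 (edgeR adjusted p = 4.18e-10). LHCA4, known for the most red-shifted chlorophylls of the belt, had 2744, 3025, 2729 and 2900 CPM in shoot. It kept 57.1, 48.1, 49.6 and 41.2 CPM in root, which was 1.72% of its shoot level. At -5.85 ± 0.12, its log2 fold change was the smallest in size of the 10 genes, with 479 counts over the 4 root libraries.

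LHCA2 and LHCA3 encode the other dimer. LHCA2 had 2233, 2733, 2327 and 2512 CPM in shoot A to D and 23.2, 21.7, 12.9 and 19.9 CPM in root, or 0.793% of the shoot level. Among the 9 genes with root counts it had the largest log2 fold change in size, at -6.97 ± 0.16 (edgeR adjusted p = 2.93e-10). For LHCA3 the shoot values were 2722, 3080, 2412 and 2571 CPM, and the root values 26.3, 38.8, 33.4 and 28.0 CPM. Its log2 fold change was -6.43 ± 0.13, and in both tissues buffer B gave the highest value.

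LHCA5, the scarce member linked to the NDH complex, had 56.0, 84.9, 72.1 and 57.1 CPM in shoot, from 180 to 298 counts. In root it had 4 counts each in A and C and 0 in B and D. The log2 fold change was -6.26 ± 0.53 (edgeR adjusted p = 4.48e-06), and it rested on those 8 counts. With each of the 8 libraries left out in turn it ran from -6.89 without shoot C to -5.82 without root B, and it was -6.85 without root C. LHCA5 and LHCB4.3 entered the test through their shoot counts alone, so a call of theirs could hardly go in the other direction.

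**Figure D2:**
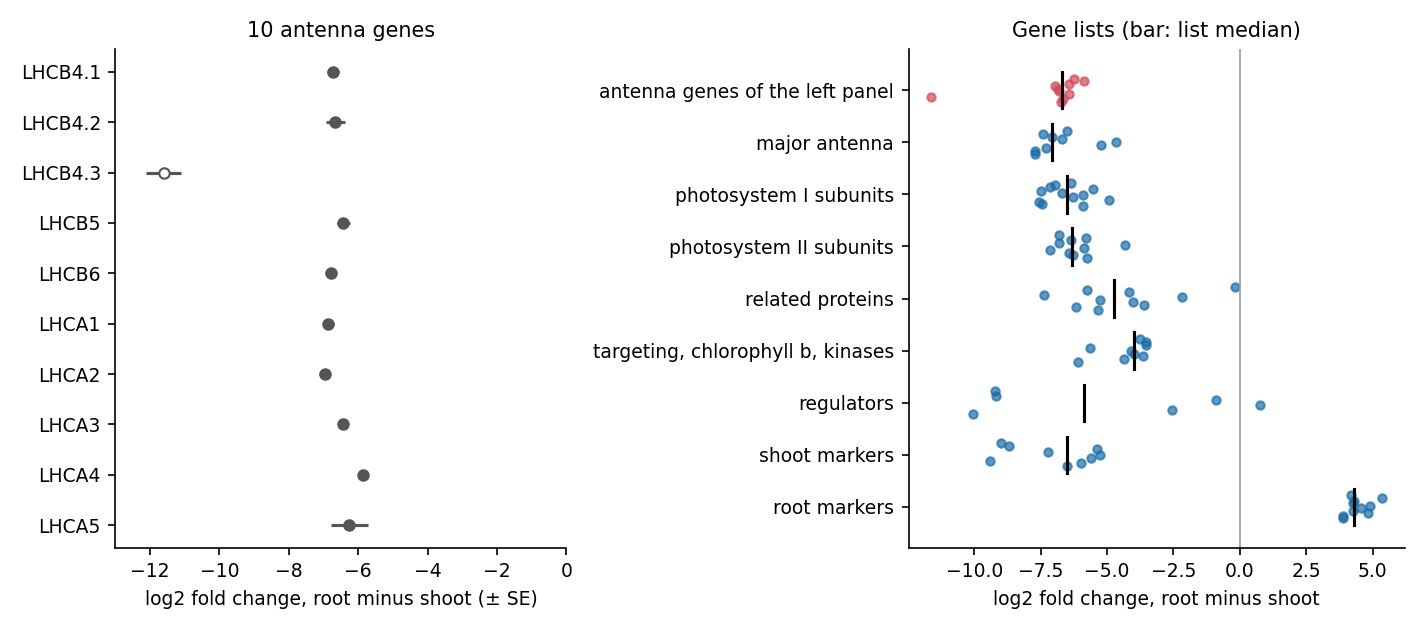
Log2 fold change, root minus shoot, for the 10 antenna genes with SE (left) and for each gene tested in 9 gene lists (right), where the bar is the list median. The open circle is LHCB4.3, whose fitted value depends on a prior count because root had no counts. The 9 genes with root counts lie between -6.97 and -5.85, and the root markers lie to the right of 0.

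The balance between partner genes was compared as a ratio of counts within each library, which needs no scaling between libraries. LHCA1 stood at 0.347, 0.369, 0.541 and 0.487 of LHCA4 in root A to D, and at 0.865, 0.908, 0.786 and 0.883 of it in shoot (0.5 added to each count). The 4 root ratios all lay below the 4 shoot ratios. The difference of the mean log2 ratios, root minus shoot, was -1.0 (exact permutation test, two-sided, p = 0.0286, the lowest possible with 4 libraries a side, and 0.143 after Benjamini-Hochberg adjustment over the 5 pairs compared). After adjustment the difference therefore did not pass.

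The LHCA2 to LHCA3 ratio was 0.885, 0.563, 0.390 and 0.714 in root and 0.820, 0.887, 0.965 and 0.977 in shoot. Root A lay among the shoot values and the other 3 root libraries below them (log2 difference -0.58, exact permutation p = 0.0571, adjusted 0.143). For the CP29 pair the shoot ratio of LHCB4.1 to LHCB4.2 was steady at 1.70 to 1.80, while the root ratio ran from 1.05 in D to 3.68 in C. Their means on the log2 scale differed by 0.00362 (exact permutation p = 1.00). The LHCB5 to LHCB6 ratio ran from 1.24 to 1.52 in shoot and from 1.21 to 3.54 in root, with a log2 difference of 0.39 (exact permutation p = 0.400, adjusted 0.500). LHCA5 to LHCA4 gave a log2 difference of -0.72 (exact permutation p = 0.343, adjusted 0.500) with 0.5 added to each count. With 2 added the difference turned to 0.45 (adjusted 0.429, exact permutation test), as root B and D had 0 counts of LHCA5, so it has no stable direction.

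**Figure D3:**
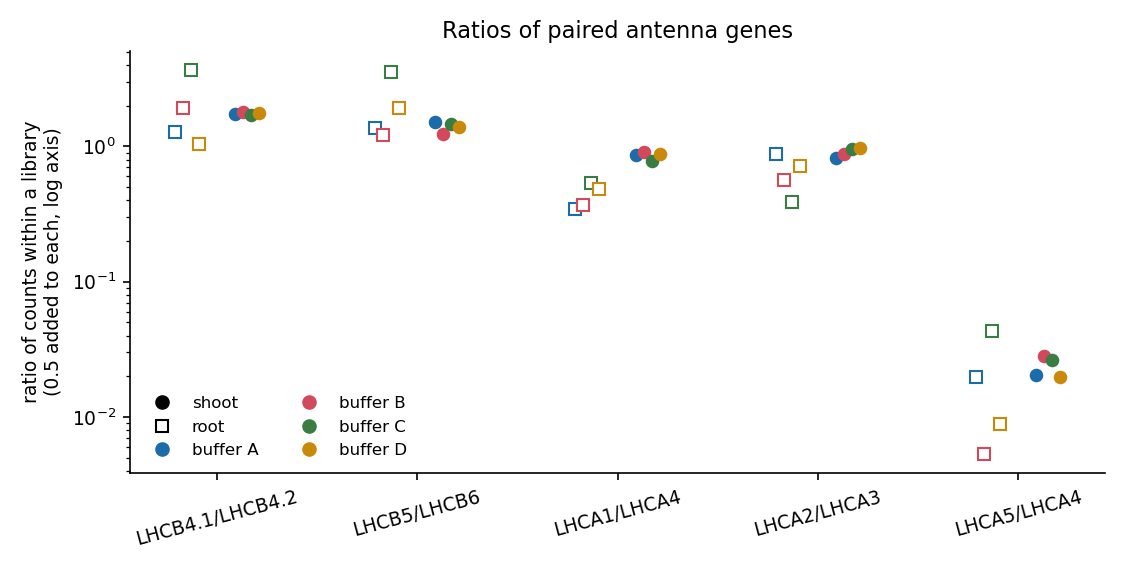
Ratio of counts of 2 antenna genes within each library, on a log axis, with 0.5 added to each count. Open squares are root and filled circles shoot libraries, coloured by buffer. The root ratios of LHCA1 to LHCA4 lie between 0.347 and 0.541, below the shoot ratios of 0.786 to 0.908, and the root ratios scatter more than the shoot ratios in each of the 5 pairs.

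As shares of the 10-gene count, the photosystem I antenna made up 48.7 ± 1.05% in shoot (SD, n = 4) and 51.8 ± 7.41% in root, and the ranges overlapped. LHCA4 alone held 12.9 to 13.6% in shoot and 15.8 to 26.7% in root. Summed counts of the 10 genes came to 50.7 to 55.1% of the summed major trimeric antenna, LHCB1 to LHCB3, in shoot libraries and to 45.0 to 49.4% in root libraries. These ranges did not overlap. They were not tested. LHCB1.5 alone had a mean of 212 CPM in root, where the summed major antenna had 504 CPM. In shoot it had 5396.5 of 40720 CPM, so the lower share in root depends on that gene. Counts may also be split between the LHCB1 genes, which are close copies.

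Between buffers, no difference passed the test for any of the 10 genes. In shoot, buffer B gave the highest value for 8 of the 10 genes and buffer C the lowest for 6 of them. This was not particular to the 10 genes. Shoot B also had the highest sums of the major antenna, photosystem I subunits, photosystem II subunits and shoot markers, at 42310, 13680, 15840 and 3130 CPM. All of these sums but that of the major antenna were lowest in shoot C. The share of all genes with such an order was not computed. The highest shoot library exceeded the lowest by 1.09-fold for LHCB4.2 up to 1.52-fold for LHCA5. In root the 9 genes with counts shared no order of buffers: the highest value fell in A for 2, in B for 2, in C for 3 and in D for 2.

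The test for any difference among buffers called 0 of the 10 with edgeR, where 0.0575% of all genes were called, and 0 at an unadjusted p under 0.05, against 0.772% of all genes. For buffer A minus C, the highest against the lowest salt, 0 of the 10 passed, beside 0% of all genes, and 0 had an unadjusted p under 0.05, beside 1.62%. Their log2 fold changes ran from -0.46 for LHCA5 to 0.24 for LHCB6, with SEs of 0.15 to 0.63. For buffer D minus B, which lowers Tris at the same salts, 0 of the 10 passed, beside 0.0447% of all genes, and 0 at an unadjusted p under 0.05, beside 1.99%. Values ran from -0.49 for LHCA5 to 0.54 for LHCB4.2, where root D had 40.5 and root B 13.4 CPM. Both ends rested on single libraries. For LHCB4.2 the difference became 0.03 when root D was left out and 1.54 when shoot D was, and for LHCA5, with no counts in root B and D, it went to 4.35 without shoot B and to -4.69 without shoot D. DESeq2 also called 0 of the 10 in each of these 3 tests, and 0 at an unadjusted p under 0.05.

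**Figure D4:**
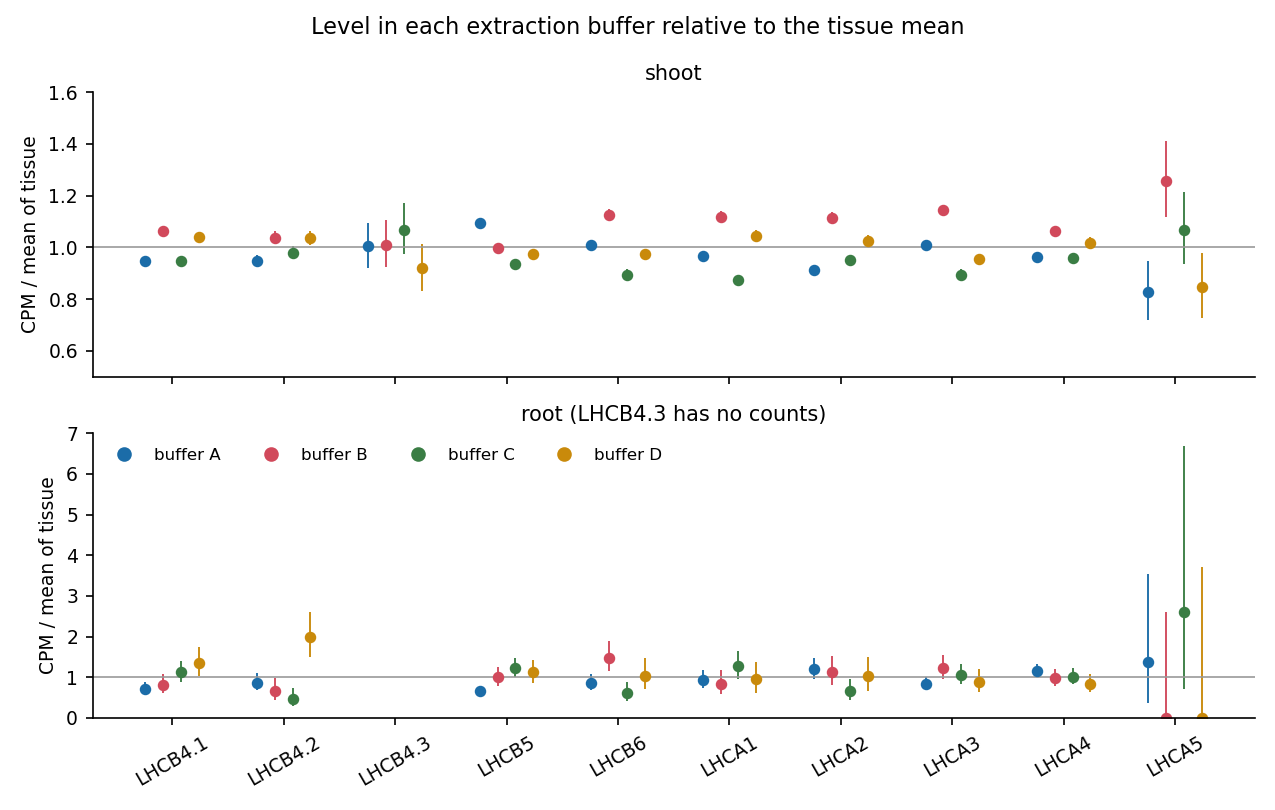
CPM of each gene in each buffer divided by its mean over the 4 libraries of the tissue, shoot above and root below, with exact Poisson 95% intervals. The vertical scales differ. Shoot points of buffer B are highest for 8 of the 10 genes, and in root LHCB4.2 in buffer D and LHCA5 depart most from 1.

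Whether the salt trend differed between the tissues was tested with MgCl2 as a number, and KCl moved with it at a fixed ratio. None of the 10 genes passed (edgeR, 0 of 10, beside 0% of all genes). At an unadjusted p under 0.05 there were 2 of the 10, beside 3.95% of all genes, and DESeq2 gave 1. For LHCB5 the difference, root trend minus shoot trend, was -1.11 ± 0.28 log2 units per 10 mM MgCl2 (unadjusted p = 0.00232 in edgeR, adjusted p = 1.00). It ran from -0.64 without root A to -1.58 without root C. For LHCA2 the difference had the opposite sign, at 0.84 ± 0.36 (edgeR adjusted p = 1.00), and it ran from 0.33 without shoot A to 1.44 without root A.

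Most other listed genes that build, place or control the antenna were also called lower in root, by different amounts, and the tested genes that did not pass were SEP2, HY5 and HYH. All 9 genes of the major trimeric antenna were called lower (edgeR adjusted p under 0.05), with a median log2 fold change of -7.07. Within that list LHCB1.1 had the largest difference, at -7.70 ± 0.13, and LHCB1.5 the smallest, at -4.67 ± 0.09, though LHCB1 genes are close copies of each other and their counts may be split between them. All 12 nuclear photosystem I subunits and all 10 nuclear photosystem II subunits were lower, with medians of -6.51 and -6.31. The genes of PsaE, a subunit on the stromal side of photosystem I, spanned its list, with PSAE1 at -7.55 ± 0.34 and PSAE2 at -4.92 ± 0.26. On the photosystem II side, PSBQ1 of the oxygen-evolving complex stood at -7.15 ± 0.21 and PSBR at -4.34 ± 0.14.

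Among 11 relatives of the light-harvesting family, 10 passed the filter on low counts and LHCB7 did not, 9 were lower in root and 0 higher, with a median of -4.72. LIL3:1, a family member that acts with chlorophyll synthesis enzymes, was at -7.36 ± 0.46, whereas for SEP2, a stress-enhanced relative, the mean was 74.5 CPM in root against 82.2 CPM in shoot (-0.18 ± 0.18, adjusted p = 0.475 in edgeR, and 0.32 with library totals alone). Targeting factors, the chlorophyll b enzyme, thylakoid kinases and an antenna phosphatase made a list of 9, all lower, with a median of -4.00. CPSRP43, which carries antenna proteins through the stroma, was at -6.08 ± 0.44, and STN8, a thylakoid kinase, at -3.54 ± 0.53. LIL3:1 and CPSRP43 had 12 and 21 counts over the 4 root libraries. Both passed the filter on low counts through shoot, with little room for the other direction. Of 6 transcription factors known to act on antenna genes, 4 were lower and 0 higher. Of those 4, 3 had no root counts. These 3 entered the test through shoot counts alone and could hardly be called higher in root. GLK1, an activator of antenna genes, had a shoot level at least 139-fold above the root floor of 3 counts, with 0 counts seen in root. HY5, a light-response factor, stood at 0.74 ± 0.50 and its relative HYH at -0.91, and neither passed (edgeR adjusted p = 0.279 and 0.0947). The median of that list was -5.87, or -4.42 when 3 genes with no root counts were placed at their bounds.

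The 5 genes whose profile over the 8 libraries came closest to the mean profile of the 10, among 10402 nuclear genes with at least 10 CPM in shoot, were AT1G75460, AT5G13400, PnsL1 (AT2G39470), AT5G53490 and DCF (AT3G48720). Their root mean square differences were 0.0797 to 0.127 log2 units. All 5 had 0 counts in root, so their closeness depended on the 0.5 CPM added before the logarithm. When a count was required in all 4 root libraries, a choice made after these values were seen, 9141 genes remained and the closest were LHCB3, PRK, GAPB, RCA and CaS, at 0.149 to 0.252. LHCB3 encodes a major antenna protein, PRK and GAPB encode Calvin cycle enzymes and RCA encodes Rubisco activase. LHCB3 had a log2 fold change of -6.51, PRK of -6.88, GAPB of -6.88, RCA of -6.28 and CaS of -7.00.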

How the data were processed

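The authors deposited raw counts of ribosome footprints per gene on coding sequences, 1 column per library, without normalization. The submitters' processing notes name Bowtie2, STAR 2.5.1b and TAIR10. Which program counted the reads, any limit on footprint length and how reads with several matches were handled is not given in the sources used. Library totals are given in the report, and intervals and floors cover counting error only. Pairs of libraries of a tissue differed by more than sampling noise (chi-square per degree of freedom 4.52 to 8.84), so none was a second deposit of another. That does not show that they came from separate plants.

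In R 4.3.3, edgeR 4.0.16 was run on all genes with TMM factors, filterByExpr by tissue (minimum count 10, minimum total 15, 15664 genes kept, the 10 antenna genes among them) and the quasi-likelihood test with tissue and buffer as terms, which left 3 residual degrees of freedom. The variance estimates of edgeR draw on all genes tested, so its p-values do not rest on the spread of a gene's own libraries alone. The tissue by MgCl2 test used numeric MgCl2 and Tris. SEs are the absolute log2 fold change divided by the square root of F, and are approximate. DESeq2 1.42.0 was an alternative. Pair ratios were tested with scipy 1.17.1. The edgeR test was also run on simulated counts. The changes planted there were smaller than the tissue differences of the antenna genes, so it was not checked at their size. Gene names follow usage, with RefSeq symbols (TAIR10.1, names only) for the nearest profiles. From each other list the genes with the largest and smallest absolute fold change were named, and the 5 nearest profiles by the rule given in the report. Members, lists and rules were chosen with earlier results of these data known. A planned comparison of levels per coding length was left out, because no coding lengths or sequences were used here.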

Additional observations from a re-analysis of the deposited data

Results flagged for a closer look

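The summed level of the 5 photosystem I antenna genes in root D, 108.9 CPM, lay apart from the 127.3, 126.2 and 124.5 CPM of root A, B and C. Its gap to the nearest of them was 0.844 of the whole range of the 4 libraries, above Dixon's 95% critical value for 4 samples. It was the only value set apart by this measure among 46 groups of 4 libraries, of which LHCB4.3 in root had no spread to measure. Chance sets apart about 1 group in 20 where groups are independent. Here they share genes and libraries, as genes, sums and ratios. The same library had the highest sum of the minor photosystem II antenna, 152 CPM. It also had the fewest counts, 148 for these 5 genes.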

How the results depend on the processing

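All 10 genes stayed lower in root, past the threshold, under 14 alternatives: DESeq2 size factors, library totals alone, nuclear genes only, DESeq2, no filter on low counts, no buffer term, and each of the 8 libraries left out. Their largest adjusted p was 5.77e-05, for LHCA5 in edgeR. LHCB4.3 and LHCA5 again had little room for the other direction. With buffer as a term, a library left out also takes its same-buffer partner out of the tissue comparison. The 2 fits of a buffer are thus nearly the same, and LHCB4.1 was at -6.63 without root B and -6.64 without shoot B. None of the 10 passed any buffer or tissue by MgCl2 test under any alternative run. Library totals alone raised the median of all genes from -0.12 to 0.38, and calls went from 3534 lower and 2781 higher in root to 2687 and 4767. Root levels then rose from 0.793% of shoot to 1.12% for LHCA2 and from 1.72% to 2.42% for LHCA4. Over all genes, the 9 calls for any buffer became 14 with library totals alone, 1 with nuclear genes only, 24 with DESeq2 and 23 without the filter, and the 7 for buffer D minus B became 2 with DESeq2 size factors, 1 with nuclear genes only, 16 with DESeq2 and 15 without the filter. Both counts fell to 0 without root B, root C, root D or shoot B and to 2 without root A or shoot C, and the second rose to 17 without shoot D. For tissue by MgCl2, 0 calls became 2 without the filter and 7 without shoot C. The cause was not tested.

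Signs of buffer values of the 10 genes, none of which passed, often turned when 1 library was left out. For buffer A minus C the ranges that cross 0 were -0.13 to 1.01 for LHCB4.2, -0.092 to 0.010 for LHCB4.3, -0.80 to 0.15 for LHCB5, -0.54 to 0.20 for LHCA1, -0.27 to 0.12 for LHCA3, -0.067 to 0.29 for LHCA4 and -1.80 to 0.22 for LHCA5. For buffer D minus B they were -0.083 to 0.28 for LHCB5, -0.18 to 0.41 for LHCA1, -0.31 to 0.024 for LHCA4 and -4.69 to 4.35 for LHCA5. For tissue by MgCl2 they were -0.53 to 2.40 for LHCB4.2, -0.035 to 0.22 for LHCB4.3, -1.45 to 2.09 for LHCB6, -1.29 to 0.12 for LHCA1, -1.09 to 0.012 for LHCA3, -0.27 to 0.66 for LHCA4 and -10.21 to 9.42 for LHCA5. The D minus B value of LHCA1, -0.019, turned to 0.013 with library totals alone and 0.0029 with DESeq2, and the MgCl2 value of LHCB4.3, with no root counts, to -0.86 with DESeq2. With 2 added to each count the LHCA5 to LHCA4 difference turned to 0.45 and that of LHCB4.1 to LHCB4.2 to -0.026, the latter running from -0.35 to 0.25 with 1 library left out.

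Taken over 8453 genes, the deviations of same-buffer root and shoot libraries were nearly uncorrelated (r = 0.00256, 0.0155, 0.0293 and 0.0380 for A to D). These values describe the genes as a whole, and the test for any difference among buffers called 9 single genes. Without the buffer as a replicate block 7019 genes differed between tissues in place of 6315, and 10 of the 10 antenna genes were called both ways. In the pair ratios a block by buffer leaves each difference as it is by construction (-1.0 for LHCA1 to LHCA4), and its adjusted p was 0.625, where 4 pairs cannot give an exact p below 0.125 before adjustment, nor 3 against 4 libraries one below 0.0571. Root counts of 20 to 226 limited the root values of the 8 abundant genes, and 0 to 4 those of LHCB4.3 and LHCA5.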
